A study of Mus musculus with 2 samples.

Results

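The 10 genes Cfap43, Cfap44, Cfap58, Cfap61, Cfap65, Cfap69, Cfap70, Cfap206, Armc2 and Ttc29, whose loss malforms the sperm tail, were followed through spermatogenesis. They were chosen by name, not by level, and 10 of 10 were present in both feature lists, out of 30052 gene symbols in all. The data were single-cell RNA sequencing counts from dissociated testis of adult mice, with 1 wild-type (WT) library and 1 Nsun7 knockout library. For the deleted part of Nsun7, the strain and the number of animals pooled per library, nothing was stated in the labels. The series title links NSUN7, a protein of the RNA cytosine methyltransferase family, to assembly of the sperm flagellum. With 1 library per genotype there was no replicate, so no difference below was tested. Every interval is a 95% interval that covers counting error only.

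The sperm tail is built on an axoneme, a ring of microtubule doublets around a central pair, on which dynein arms, radial spokes and linkers repeat along the length. Many of its parts carry the name Cfap, for cilia and flagella associated protein. In men and in mice, loss of any of these genes gives tails that are short, coiled, irregular or missing, a picture known as multiple morphological abnormalities of the sperm flagella. The axoneme begins to grow in the early round spermatid, and the head and tail are remodelled in elongating spermatids, in which transcription stops.

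The filter kept 15139 WT cells with a median of 8723 counts and 13869 knockout cells with a median of 12020 counts. Barcodes were named by running numbers, of which 2168 occurred in both libraries. Clusters were named from marker genes, and each class name means "like" that cell type. Spermatogonia (clusters 6 and 13) held 1401 WT and 661 knockout cells, early spermatocytes (cluster 12) 838 and 342, late spermatocytes (clusters 4, 7, 14 and 15) 3608 and 1210, round spermatids (cluster 16) 525 and 448, and elongating spermatids 4954 and 8395. Cluster 8, with 1110 WT and 489 knockout cells, had its highest marker score for round spermatids and all 10 of their markers at 10 CPM or more, where CPM is counts scaled to 1000000 per class. It was left unnamed because Spag6, listed as a late spermatocyte marker, stood among its 10 leading genes. Depth differed within classes: the median was 10764 counts per WT late spermatocyte and 3691 per knockout one, 7503 and 3796.5 in round spermatids, and 16050.5 and 13153 in cluster 8. The low-count cluster 15 gave 592 of the WT and 507 of the knockout late spermatocytes. Nsun7 itself stood at 216 CPM (WT) and 52.0 CPM (knockout) in late spermatocytes and at 235 and 42.2 CPM in cluster 8. The knockout library therefore carried less Nsun7 RNA but not none.

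Start regions are shown because a pattern of short letters is common to 5 of the 8 genes with a promoter entry. RefSeq promoters on GRCm38.p6 matched 8 of the 10 genes (not Cfap65 and Armc2). Those of Cfap43 and Cfap58, which lack the paired pattern described next, are not printed. The windows below run from 100 bases before the transcript start to the first 20 bases of the transcript, 5′ to 3′ on the gene's strand. Capitals mark GTTNCC on either strand and a paired pattern, GTTNC and GNNAC with 4 bases of any kind between them, in which N is any base. RFX factors, which switch on many cilium genes, are known to bind X-boxes, of which GTTGCC and GTTNCC are short forms. The positions are chr16:44394699-44394818 (+) for Cfap44, chr2:145934684-145934803 (+) for Cfap61, chr14:20452206-20452325 (-) for Cfap70, chr4:34730187-34730306 (-) for Cfap206, chr8:78213242-78213361 (+) for Ttc29 and chr5:5664213-5664332 (-) for Cfap69, which is shown as a window with no match.
Cfap44: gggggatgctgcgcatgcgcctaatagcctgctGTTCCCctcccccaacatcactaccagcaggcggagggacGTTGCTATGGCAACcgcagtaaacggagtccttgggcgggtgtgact
Cfap61: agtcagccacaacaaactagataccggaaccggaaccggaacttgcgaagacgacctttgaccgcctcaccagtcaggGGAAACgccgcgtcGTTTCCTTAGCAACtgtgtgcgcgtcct
Cfap70: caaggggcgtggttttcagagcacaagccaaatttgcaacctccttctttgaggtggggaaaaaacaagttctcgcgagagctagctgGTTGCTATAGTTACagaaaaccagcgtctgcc
Cfap206: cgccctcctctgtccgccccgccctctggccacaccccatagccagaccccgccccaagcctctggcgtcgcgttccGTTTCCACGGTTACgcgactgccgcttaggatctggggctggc
Ttc29: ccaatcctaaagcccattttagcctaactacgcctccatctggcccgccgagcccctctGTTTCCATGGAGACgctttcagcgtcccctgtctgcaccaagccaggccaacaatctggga
Cfap69: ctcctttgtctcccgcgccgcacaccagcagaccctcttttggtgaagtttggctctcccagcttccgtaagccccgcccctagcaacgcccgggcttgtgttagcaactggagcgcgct

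The paired pattern was picked after reading these sequences, so its count is a description. It lay in 5 of the 8 promoters of 300 bases (250 before to 50 after the start), beside 3.83% of the 32851 promoters of the same table. Its first base was 27 bases before the start of Cfap44, 8 before that of Cfap61, 12 before that of Cfap70, 23 before that of Cfap206 and 41 before that of Ttc29. The shorter letters were fixed ahead of the search, were read on both strands, and overlap with the pattern in some genes. GTTNCC, which includes GTTGCC, was in 6 of 8 promoters against 45.3% of all, and GTTGCC in 2 of 8 against 12.5%. AACNGT, the core site of the meiotic regulator A-MYB, was in 4 of 8 against 26.1%, and TGACGT, a short site of CREM, was in 0 of 8 against 7.51%.

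All 10 are protein-coding genes in GENCODE M21 on GRCm38. Cfap43 (chromosome 19, 47736857 to 47919287, minus strand) and Cfap58 (chromosome 19, 47937675 to 48035387, plus strand) are neighbours on opposite strands. Cfap44 lies on chromosome 16 (44394796 to 44482428, plus), Cfap61 on chromosome 2 (145934784 to 146215039, plus) and Cfap65 on chromosome 1 (74902071 to 74935599, minus). Cfap69 lies on chromosome 5 (5579278 to 5664239, minus), Cfap70 on chromosome 14 (20394193 to 20452226, minus) and Cfap206 on chromosome 4 (34688559 to 34730206, minus). Armc2 lies on chromosome 10 (41914990 to 42018442, minus) and Ttc29 on chromosome 8 (78213297 to 78394326, plus). The span of Cfap43 overlaps Itprip on its own strand and Gsto1 and Gsto2 on the other. Cfap61, Cfap65, Cfap70 and Armc2 each overlap 1 gene on the other strand (Crnkl1, Gm15841, 7330404K18Rik and 1700016J18Rik). Counting by strand is not stated in the labels or headers, so reads of these 5 genes and of their partners may not be fully separated.

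Levels were taken as counts summed per library and class, in CPM of that class, and each pair of values below gives WT first and the knockout library second. The 10 genes were low in spermatogonia and early spermatocytes, high from late spermatocytes to cluster 8, and lower in elongating spermatids, except that Cfap44 was already well above the somatic level in spermatogonia and Cfap69 was high to the end. Over the 5 named germ classes, 8 genes in WT and 9 in the knockout library were highest in late spermatocytes. Cfap69 was highest in round spermatids in both libraries, and Cfap58 was so in WT. For Armc2 in WT, late spermatocytes (50.6 CPM) and round spermatids (49.3 CPM) were not separated by counting error. Over single clusters, cluster 8 held the highest level of 5 WT and 6 knockout profiles. These places depend on where the borders between clusters fall: with another Leiden seed, chosen after seeing the data, cells of cluster 8 were counted as round spermatids, and 6 genes were then highest in that class in each library. The order of clusters used here (14, 7, 4, 8 and 16) was not fitted. Piwil1 and Pou5f2 were among the 10 leading genes of cluster 14, and Slc2a3 and Aurka among those of cluster 7. Clusters 4, 8 and 16 each had 0 markers of their best class among their leading genes. Cluster 4 scored 1.18 for late spermatocyte and 1.1 for round spermatid markers.

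**Figure D1:**
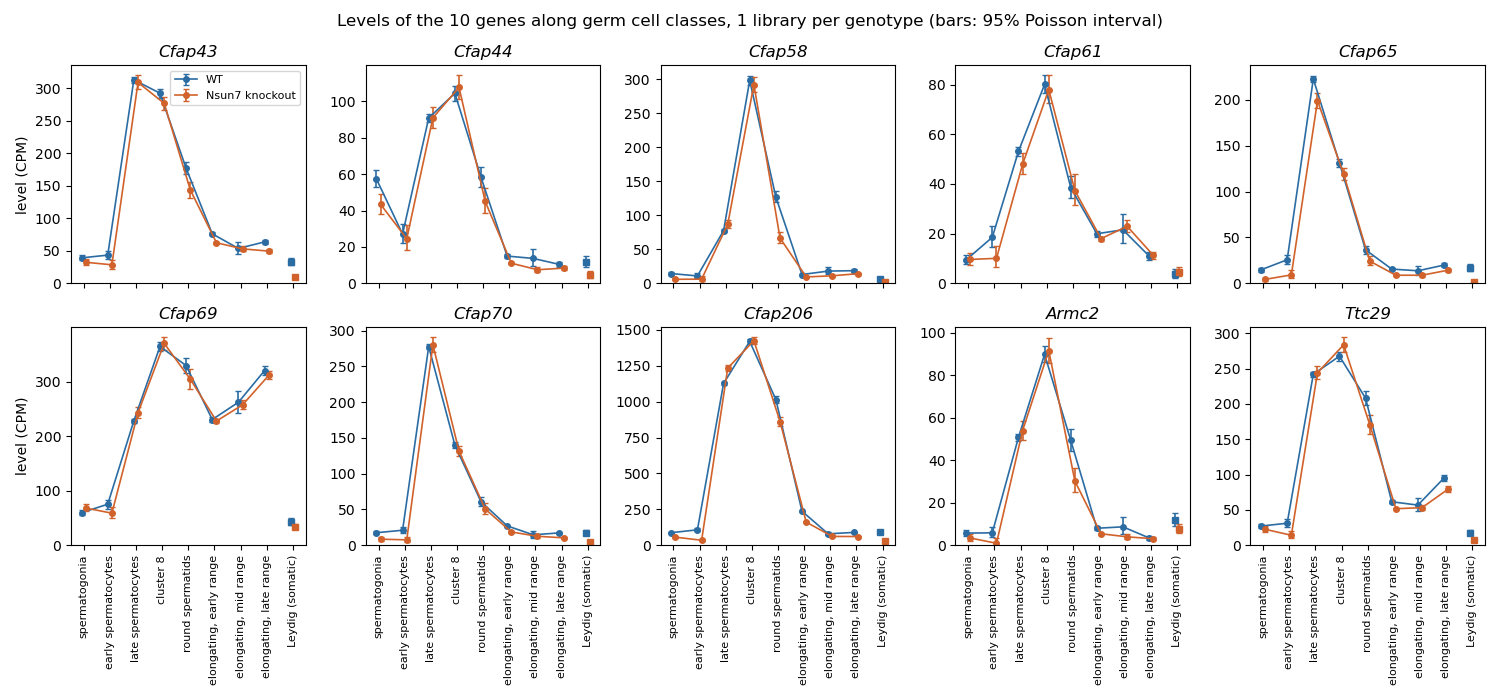
Level of each gene in CPM (counts scaled to 1000000 per class; vertical axes start at 0 and differ between panels) along germ cell classes, with Leydig cells as a somatic class set apart. Points are 1 library each (WT blue, Nsun7 knockout orange) and bars are 95% Poisson intervals. The lines lie close together in late spermatocytes and cluster 8, and the knockout points lie lower in round spermatids.

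Cfap43 and Cfap44 encode the tether that holds the head of an inner dynein arm to its doublet. Cfap43 was low before late prophase, with 39.1 and 32.4 CPM in spermatogonia and 43.3 and 28.5 CPM in early spermatocytes. Late spermatocytes held 313 CPM (309 to 317) and 309 CPM (298 to 319), which is 7.99-fold and 9.55-fold the level in spermatogonia. Over the 4 late spermatocyte clusters the level ran from 255 CPM in cluster 14 to 350 CPM in cluster 15 of the WT library and from 255 to 339 CPM in the same clusters of the knockout library. Levels were then 292 and 277 CPM in cluster 8, 177 and 144 CPM in round spermatids, and 71.8 and 59.4 CPM in elongating spermatids.

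Cfap44, its partner, differed from the other 9 genes at the start of the series of stages. Spermatogonia held 57.4 CPM (52.9 to 62.1) and 43.4 CPM (38.4 to 48.9), against 11.6 and 4.65 CPM in Leydig cells. They thus carried 4.93-fold more Cfap44 than Leydig cells in WT and 9.33-fold more in the knockout library. Of the 2 clusters of spermatogonia, cluster 13 was the higher one in both libraries, with 80.1 and 56.6 CPM against 44.2 and 38.0 CPM in cluster 6. Early spermatocytes were lower, with 27.1 CPM on 117 counts and 24.5 CPM on 56 counts. Late spermatocytes held 90.9 and 91.0 CPM and cluster 8 held 104.5 and 108 CPM. The step from spermatogonia to late spermatocytes was 1.58-fold and 2.10-fold, the lowest such step of the 10 genes in both libraries. Round spermatids held 58.4 and 45.0 CPM of Cfap44 and elongating spermatids 13.7 and 10.3 CPM.

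Cfap61 belongs to the calmodulin and spoke associated complex at the foot of a radial spoke. Its level was 9.45 and 9.61 CPM in spermatogonia and 53.1 and 47.9 CPM in late spermatocytes. In the WT library it was 38.2 CPM in cluster 14, 49.9 CPM in cluster 7, 73.7 CPM in cluster 4 and 80.04 CPM in cluster 8. The knockout values in that order were 31.9, 39.8, 63.6 and 78.0 CPM. Both libraries thus gave the same order of these 4 clusters, with cluster 8 highest. Round spermatids held 38.6 and 37.3 CPM and elongating spermatids 17.5 and 17.4 CPM.

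Cfap206 docks a radial spoke and an inner dynein arm. Its levels in spermatogonia were 86.9 and 55.6 CPM and in early spermatocytes 107 and 34.2 CPM, where Leydig cells gave 90.4 and 26.7 CPM. In WT the level in spermatogonia was therefore no higher than in Leydig cells. In late spermatocytes they were 1127 CPM (1119 to 1135) and 1234 CPM (1213 to 1255), a step from spermatogonia of 12.97-fold and 22.2-fold. Cluster 8 was higher still, with 1420 and 1425 CPM. Round spermatids still held 1015 and 862 CPM, while elongating spermatids held 189 and 135 CPM. Inside elongating spermatids its level was 236 and 160.5 CPM in the early range and 88.8 and 60.1 CPM in the late range. Those ranges are cuts of the share of protamine and transition protein counts per cell and not cell types.

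Cfap65, needed for flagellum assembly, and Cfap70, a protein of the axoneme with tetratricopeptide repeats, were the genes higher early than late across these clusters. In WT, Cfap65 was 250 CPM (243 to 257) in cluster 14, 221 CPM in cluster 7, 198 CPM in cluster 4 and 131 CPM in cluster 8. The knockout values were 232, 228, 163 and 119 CPM. The log2 ratio of cluster 8 to cluster 14 was -0.93 (-0.99 to -0.87) and -0.96 (-1.10 to -0.82). Cfap70 gave 279, 299.7, 245 and 140.1 CPM in the same WT clusters and 315, 298, 235 and 131 CPM in the knockout ones. Its log2 ratio of cluster 8 to cluster 14 was -0.99 and -1.26. These were the 2 genes of the 10 with a lower level in cluster 8 than in cluster 14. By round spermatids Cfap65 was down to 36.5 and 24.2 CPM and Cfap70 to 60.8 and 50.6 CPM.

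Cfap58, a coiled coil protein of the flagellum, went the other way between the same clusters. In WT it was 29.7 CPM in cluster 14, 54.4 CPM in cluster 7, 162 CPM in cluster 4 and 298 CPM (292 to 305) in cluster 8. The knockout values were 19.8, 43.3, 168 and 292 CPM (282 to 303). Cluster 8 over cluster 14 was a 10.1-fold step in WT (log2 3.33, interval 3.21 to 3.45) and a 14.8-fold step in the knockout library (log2 3.88, interval 3.48 to 4.31). The unnamed low-count cluster 2 held 247 and 260.4 CPM, next below cluster 8. The next highest steps from cluster 14 to cluster 8 were those of Cfap61, at 2.10-fold and 2.45-fold. The level of Cfap58 was lower again after cluster 8, with 127 and 66.6 CPM in round spermatids and 12.95 and 9.38 CPM in the early range of elongating spermatids. From cluster 8 to that range it was lower 23.03-fold and 31.2-fold.

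Armc2 is an armadillo repeat protein whose algal counterpart carries radial spokes into the growing flagellum, and Ttc29 is a tetratricopeptide repeat protein linked to intraflagellar transport. Armc2 gave 45.5 CPM in cluster 14 and 89.7 CPM in cluster 8 of the WT library, and 47.8 and 91.5 CPM in the same clusters of the knockout library. That is a log2 step of 0.98 and 0.94. In elongating spermatids its levels of 6.69 and 4.85 CPM lay below the 10 CPM used as the minimum for a measured gene, and in early spermatocytes it rests on 25 WT and 2 knockout counts. Ttc29 differed little over these clusters, with 252 CPM in cluster 14 and 268 CPM in cluster 8 in WT and 264 and 284 CPM in the knockout library. Round spermatids held 208 and 171 CPM of Ttc29. Its level was then 61.5 and 51.6 CPM in early and 95.1 and 79.4 CPM in late elongating spermatids, so that the late range was the higher one in both libraries.

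Cfap69, a protein needed for the structure of the sperm tail and also present in olfactory cilia, was the gene that stayed high. It began at 59.5 and 68.1 CPM in spermatogonia and 75.1 and 58.7 CPM in early spermatocytes. Levels of 228 and 243 CPM in late spermatocytes, 364 CPM (357 to 372) and 370.1 CPM (358 to 382) in cluster 8 and 329 and 304 CPM in round spermatids followed. Within elongating spermatids they were 230.4 and 228 CPM in the early, 262 and 257 CPM in the middle and 320.1 and 311 CPM in the late range. The log2 step from the early to the late range was 0.47 (0.43 to 0.52) and 0.45 (0.41 to 0.49). Ttc29 (0.63 and 0.62), Cfap58 (0.52 and 0.60) and Cfap65 (0.36 and 0.70) also had a positive step there. The other 6 genes had negative ones, from -0.26 for Cfap43 in WT to -1.42 for Cfap206 in the knockout library. A level here is a share of a cell's counts, so less of other RNA per cell and more of a gene's RNA cannot be told apart.

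**Figure D2:**
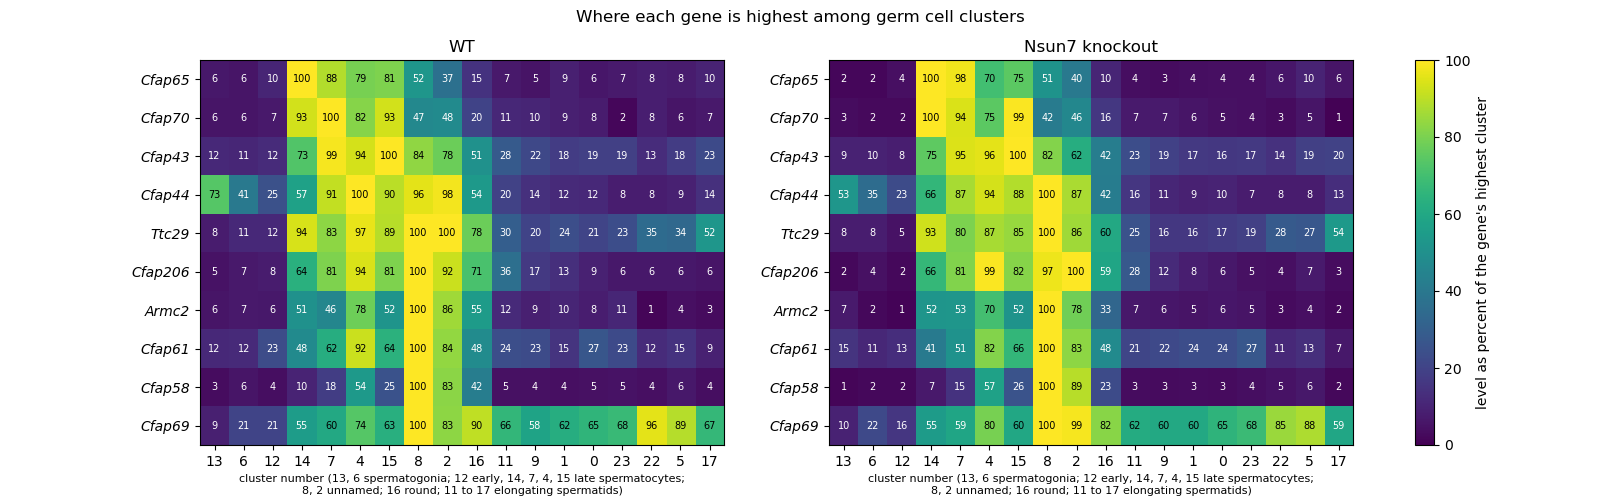
Level of each gene in single germ cell clusters as a percentage of that gene's highest cluster (colour and printed value, 0 to 100), in WT (left) and the Nsun7 knockout library (right). Cluster 3, in which most cells were called doublets, is not drawn. Cfap65 and Cfap70 are highest in clusters 14 or 7, Cfap58 is highest in cluster 8 and next highest in cluster 2, Cfap44 is also high in cluster 13 of the spermatogonia, and Cfap69 stays high in elongating spermatids.

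Profiles over the 9 named classes, 4 of them somatic, were compared as log2(CPM + 5). Pearson's r between pairs of the 10 genes ranged from 0.339 (Cfap44 with Cfap69) to 0.976 (Cfap206 with Ttc29) in WT, with a median of 0.826 over 45 pairs. In the knockout library it ranged from 0.399 to 0.982, with a median of 0.872. Against the mean of the other 9 genes, Cfap44 (0.678) and Cfap69 (0.751) were lowest in WT and Cfap206 (0.977) was highest. The classes of a library share depth and free RNA, so these values describe the libraries. Outside the 10 genes, the profiles most like their mean in WT included those of Katnal1 (0.997), Nlrp14 (0.993), Acrbp (0.993) and Drc7 (0.991). In the knockout library these 4 genes had r of 0.991, 0.985, 0.987 and 0.982. Katnal1 encodes a subunit of the microtubule-severing enzyme katanin, Acrbp a protein of the acrosome and Drc7 a subunit of the nexin-dynein regulatory complex. Late spermatocytes held 174 and 193 CPM of Katnal1 and 94.6 and 97.2 CPM of Drc7.

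Counts per cell gave the number of the 10 RNAs found in the same cell, which depends on depth. No number expected from separate detection of each gene was worked out. In cluster 8 a WT cell had a count of 9 and a knockout cell of 8 of the 10 genes (medians), and 39.7% and 31.5% of cells had a count of all 10. The summed level of the 10 genes was 3188 and 3175 CPM in that cluster. To set cell types of unlike depth side by side, each cell was thinned to 1000 counts. Then 95.5% of WT (94.1 to 96.6%, exact binomial) and 96.5% of knockout cluster 8 cells (94.5 to 98.0%) had a count of any of the 10 genes. Leydig cells, which lack a flagellum, gave 16.8% (13.01 to 21.1%) and 10.9% (7.88 to 14.5%) at the same depth. Without thinning the shares were 100% and 100% in cluster 8 and 73.9% and 59.5% in Leydig cells, at median depths of 16050.5 and 13153 against 10040 and 13742.5 counts. Shares at or below the Leydig values are not read as expression. Leydig cells had the lowest summed level of the named somatic classes, with 252 and 103 CPM. Sertoli cells held 688 and 648 CPM, macrophages 664 and 367 CPM and interstitial stroma 510 and 335 CPM. Elongating spermatids held 682 and 563 CPM, which is no higher than in Sertoli cells. A level above that of Leydig cells is thus not above every somatic class. The 10 elongating spermatid markers summed to 124500 and 173000 CPM in Sertoli cells, against 217100 and 242300 CPM in elongating spermatids. They summed to 73540 and 124600 CPM in macrophages, 64120 and 94300 CPM in interstitial stroma and 19550 and 23230 CPM in Leydig cells. These somatic classes thus also held spermatid RNA, and its part in their levels was not tested.

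Single genes showed how far each stood above that background after thinning. Cfap206 was found in 76.3% and 76.9% of cluster 8 cells (99.7% and 100% unthinned), against 4.83% and 4.08% of Leydig cells. Cfap58 was found in 22.9% and 26.6% (91.5% and 89.8% unthinned), against 1.99% and 0.272%. Armc2 was found in 7.93% and 9.61% (69.0% and 66.3% unthinned), against 1.14% and 0.544%. In spermatogonia Cfap44 was found in 5.43% of WT (4.30 to 6.74%) and 4.09% of knockout cells (2.71 to 5.89%), with 25.1% and 23% unthinned, against 1.14% and 0.272% of Leydig cells. The Armc2 share in spermatogonia (0.286% and 0.454%) was no higher than in Leydig cells and is not read as expression. In elongating spermatids Cfap69 was found in 22.4% and 21.9% of cells, and Armc2 in 0.404% and 0.465%, which is again no higher than in Leydig cells.

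Knockout and WT levels of the 10 genes were then compared within each class. A gene counts as apart at 1.5 times or more after adding 5 CPM to both levels, and as measured at a mean of 10 CPM or more. In late spermatocytes 10 of 10 genes were measured and 0 were apart, where 2.72% of 7967 measured genes were. The log2 ratios of knockout to WT ran from -0.16 for Cfap65 to 0.17 for Cfap58, with a median of 0.01 for the 10 and -0.03 for all genes. Intervals lay below 0 for 2 genes, above 0 for 3 and across it for 5. Cfap58 turned below 0 with the same mix of clusters in both libraries (-0.07 with 5 CPM added), and within clusters 14, 7 and 4 its log2 ratios were -0.58 (-1.02 to -0.17), -0.33 (-0.59 to -0.07) and 0.05 (-0.07 to 0.17). In cluster 8 again 0 of 10 were apart, where 0.725% of 8134 genes were. The ratios there ran from -0.14 (Cfap65, -0.23 to -0.04) to 0.08 (Ttc29, 0.02 to 0.15), with a median of -0.01 for the 10 genes and -0.03 for all. In both cell groups each of the 10 genes thus differed by less than 1.5 times between the libraries.

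**Figure D3:**
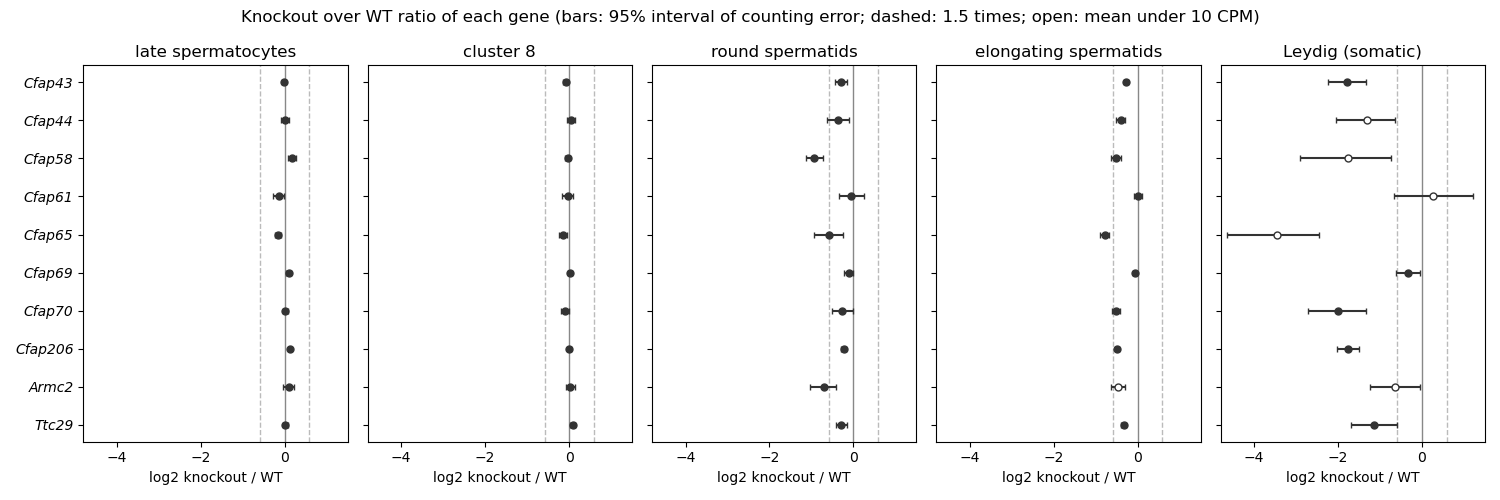
Log2 ratio of the knockout over the WT level of each gene in 4 germ cell groups and in Leydig cells. Points are ratios without an added constant, bars are exact 95% intervals of counting error, dashed lines mark 1.5 times, and open points have a mean under 10 CPM. Points lie near 0 in late spermatocytes and cluster 8, mostly left of 0 in round and elongating spermatids (trimmed mean scaling puts 2 and 4 genes above 0 there), and furthest left in Leydig cells, where Cfap61 (open point) lies right of 0.

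In round spermatids all 10 genes had the lower level in the knockout library, with trimmed mean scaling turning Cfap61 and Cfap69 above 0 and the mean of each cell's CPM turning Cfap61. Intervals of the ratio lay below 0 for 9 genes and across it for Cfap61. Cfap58 was apart, with 127 CPM (119 to 135) and 66.6 CPM (58.6 to 75.4), a log2 ratio of -0.93 (-1.14 to -0.73). Armc2 was also apart, with 49.3 CPM (44.4 to 54.7) and 30.1 CPM (24.8 to 36.2), a log2 ratio of -0.71 (-1.03 to -0.40). Among all 7413 measured genes 10.2% were apart and 7.96% were so with the lower level in the knockout library, against these 2 of 10 genes. Cfap65 had 1.51-fold less in the knockout library without the added constant, and Cfap69 had the ratio nearest to 0 after Cfap61 (-0.11, -0.22 to -0.01). The median log2 ratio was -0.28 for the 10 genes and -0.15 for all, of which 5216 were below 0.

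These round spermatid differences depended on how the cells were clustered and named. With another Leiden seed the class held 1730 WT and 906 knockout cells, 0 of 10 genes were apart and the median was -0.08, with Cfap58 at -0.16 and Armc2 at -0.10. Giving the unnamed clusters 2 and 8 their best class, also chosen after seeing the data, likewise left 0 of 10 apart, as did Leiden resolution 2. Elongating spermatid markers were higher in the knockout class: the 10 markers summed to 48850 CPM in WT and 79500 CPM in knockout round spermatids of cluster 16, with 10 of 10 at 10 CPM or more in both. The 10 late spermatocyte markers summed to 2549 and 2228 CPM and the 10 round spermatid markers to 5120 and 4442 CPM. In cluster 8, where the 10 genes were near equal, the elongating markers summed to 11850 and 17820 CPM and the round spermatid markers to 5350 and 5415 CPM. A median of 5 of the 10 genes was found per WT and of 3 per knockout round spermatid. The part of these values in the lower levels was not tested.

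In elongating spermatids 9 of the 10 genes were measured (not Armc2) and 0 were apart, where 9.12% of 4827 genes were, 9.09% with the lower level in the knockout library. All 9 had the lower level in the knockout library, although the interval of Cfap61 held 0 and Leiden resolution 2, another seed and subtraction of free RNA each turned it above 0. Their median log2 ratio was -0.31, beside -0.09 for all genes, of which 3296 were below 0. Trimmed mean scaling (log2 factor of -0.39, knockout over WT) put Cfap43, Cfap61, Cfap69 and Ttc29 above 0. It gave medians of -0.01 for the 9 genes and 0.24 for all. Cfap65 had the lowest ratio, with 16.7 and 9.68 CPM (log2 -0.79, -0.90 to -0.68). Its WT level there was no higher than in Leydig cells, at 7.50% and 7.64% of its WT late spermatocyte level. The knockout shares were 4.86% in elongating spermatids and 0.778% in Leydig cells. Cfap206 had 189 and 135 CPM (-0.49, -0.52 to -0.45). Cfap61 with 17.5 and 17.4 CPM (-0.10 to 0.09) and Cfap69 with 257 and 244 CPM (-0.08, -0.10 to -0.05) had the ratios nearest to 0.

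The same difference was followed along elongating spermatids. The median of the measured genes was -0.32 in the early, -0.16 in the middle and -0.31 in the late range. The libraries filled the clusters unequally: cluster 5 held 1662 WT and 119 knockout cells, and cluster 23 held 82 and 1948. In cluster 5 the median was 0.02, with 5 of 8 genes above 0, while in the other 7 clusters it lay between -0.30 and -0.21. With the same mix of clusters in both libraries the median was -0.19.

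Free RNA, released by broken cells and captured with every cell, also differed between the libraries. Leydig markers in elongating spermatids stood at 6.98% of their level in the whole library in WT and at 5.32% in the knockout library. Over the whole library Cfap206 measured 685 and 287 CPM, and fewer late spermatocytes were found in the knockout library. At those shares free RNA would amount to 47.8 and 15.3 CPM of Cfap206 in elongating spermatids, and to 7.21 and 1.49 CPM of Cfap65. After subtraction 6 genes were still measured and their median was -0.08, with Cfap206 at -0.23 and Cfap65 at -0.14. The amounts taken off for Cfap206 were below its level in Leydig cells of the same library, given below. The subtraction may thus take off too little, and what it leaves was not tested. In the same way the median in round spermatids was -0.24, with Cfap58 at -0.87.

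In Leydig cells, macrophages and interstitial stroma most measured genes of the 10 had the lower level in the knockout library. In Leydig cells 5 genes were measured and 4 were apart and lower, where 6.43% of all genes were, and the median was -1.26 beside -0.05 for all. Cfap206 had 90.4 CPM (82.1 to 99.3) and 26.7 CPM (22.7 to 31.2) there, and Cfap69 had 42.8 and 34.1 CPM. Cfap61, under the minimum for a measured gene with 3.74 and 4.48 CPM in Leydig cells, went the other way. In macrophages 7 of 9 genes were apart and lower, where 30% of all genes were, and in interstitial stroma 5 of 8, where 15% were, with Cfap69 (100.2 and 105 CPM) the 1 gene of the 8 above 0. In Sertoli cells 0 of 10 were apart, where 47.7% of all genes were, and the median was -0.27 beside -0.52 for all. Fewer germ cell RNAs in the fluid and less RNA of these genes per somatic cell cannot be told apart here.

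In the classes before late spermatocytes levels were low. In spermatogonia 7 genes were measured and 3 were apart and lower, where 2.8% of all genes were: Cfap58 (14.4 and 5.93 CPM), Cfap70 (17.4 and 8.33 CPM) and Cfap206 (86.9 and 55.6 CPM). Cfap69, with 59.5 and 68.1 CPM, went the other way. With called doublets left out it turned below 0, as did all 10 genes. In WT, counting error did not separate spermatogonia from Leydig cells for Cfap70 (log2 0.01, -0.37 to 0.40) or Cfap206 (-0.06, -0.22 to 0.11). For Cfap58 the WT spermatogonia were higher than Leydig cells (1.16, 0.59 to 1.76). The median of the 7 was -0.37 beside -0.13 for all. Free RNA at the Leydig marker share would amount to 60.4 and 17.9 CPM of Cfap206, so that its ratio was 0.44 after subtraction. Of the 10 genes, 5 were then above 0 (Cfap43, Cfap61, Cfap69, Cfap206 and Ttc29) and 5 below. Without subtraction 2 were above 0 (Cfap61 and Cfap69) and 8 below. In early spermatocytes 5 of 8 genes were apart and lower, where 6.32% of all genes were: Cfap61, Cfap65, Cfap70, Cfap206 and Ttc29. Cfap65 had 25.7 and 9.19 CPM there and Ttc29 31.0 and 14.01 CPM. The median of these 8 was -0.78 beside -0.01 for all. It was -0.47 after subtraction of free RNA, at Leydig marker shares of 10.4% and 5.65%, and -0.33 over 7 genes with another Leiden seed, where the class held 226 and 65 cells. With that seed Cfap58 and Cfap70 were above 0 (0.12 and 0.63), so the direction of Cfap70 rests on the clustering. Subtraction of free RNA put Cfap44 and Cfap58 above 0 and left the other 8 genes below it.

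Other genes of the sperm tail gave the context of these values, from 2 lists. Of 32 other genes of malformed sperm flagella, which include dynein heavy chains, fibrous sheath proteins and linkers, 31 were in the files, and of 24 other Cfap genes 23 were. In late spermatocytes the median log2 ratio was 0.05 over 31 measured genes of the first list and -0.02 over 21 of the second. In either list 0 were apart, where 2.72% of all genes were. In cluster 8 the medians were -0.09 and -0.09, again with 0 apart, where 0.725% of all genes were. In round spermatids they were -0.32 over 27 genes and -0.33 over 20, beside the -0.28 of the 10 genes. There 3 of the 27 and 4 of the 20 were apart and lower, where 7.96% of all genes were. The 3 were Ccdc39 (43.4 and 21.3 CPM), Dnah1 (36.9 and 20.2 CPM) and Fsip2 (226 and 147 CPM). The 4 were Cfap20, Cfap36 (708 and 459 CPM), Cfap74 and Cfap100 (109 and 57.0 CPM). The highest ratios there were those of Akap4, the main protein of the fibrous sheath (1594 and 1845 CPM), and Cfap410 (13.8 and 17.1 CPM). Other abundant genes of the lists there were Akap3 (1059 and 1125 CPM), Ift74 (386 and 326 CPM), Cfap97d1 (404 and 421 CPM) and Cfap45 (370.1 and 278 CPM).

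In elongating spermatids the medians of the 2 lists were -0.33 over 16 genes and -0.20 over 15. In the first list 3 of 16 were apart and lower and in the second 6 of 15, where 9.09% of all genes were. Ccdc39 of the first, a ruler of the axonemal repeat, had 20.6 and 6.88 CPM. Cfap36 of the second had 58.3 and 18.3 CPM. Both genes were abundant in late spermatocytes, with Cfap36 at 1412 and 1380 CPM and Ccdc39 at 471 and 439.6 CPM. The genes with the highest ratios were Ttc21a, of the intraflagellar transport complex (91.8 and 98.8 CPM, log2 0.11), and Ccdc189 (307 and 336 CPM, log2 0.13). None of the most abundant genes of the first list was apart: Akap4 had 4759 and 4485 CPM, Akap3 542 and 494 CPM and Dzip1 248 and 214 CPM. In the second list Cfap97d1 had 170 and 174 CPM and Cfap126 had 118 and 125 CPM.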

How the data were processed

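Adult testis was dissociated and its poly(A) RNA sequenced, in 1 library of each genotype (WT, Nsun7 knockout). The deposited values are raw counts, whole numbers for each gene in each barcode, with no normalization. Per the file headers, PISA 0.12 wrote them. The submitters' processing notes name GRCm38. An aligner, an annotation and any earlier filter on barcodes: not given in the sources used here. In WT there were 16376 barcodes with 220247156 counts, and in the knockout matrix 16837 with 210531446. The smallest total was 1001 counts per barcode.

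Barcodes under 200 genes or over 20% mitochondrial counts were left out. Doublets were called per library with Scrublet (600 WT and 622 knockout cells, 3.96% and 4.49%) and kept. Log counts of 3000 variable genes, without the 10 genes and Nsun7, were reduced to 40 components and clustered on 20 neighbours (Leiden, resolution 1, 26 clusters) with no batch correction. A cluster took the class of its highest marker score, among classes with 3 or more markers detected in it. No name was given where markers of another class led its 10 leading genes or over 50% of cells were doublets. Nor was a name given where its depth was under the library's divided by 3 with no own marker leading. The 2 last limits were set after seeing clusters. Elongating spermatids were divided by counts: late (Tnp1 under 1%, Prm1 plus Prm2 5% or more), else early (under 15%) or middle.

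Within each class, the counts of a library were summed and scaled to CPM. Levels carry exact Poisson intervals, ratios exact conditional binomial ones and shares exact Clopper-Pearson ones. With 1 library per genotype no test was run. The calculation was tested on simulated data. The 10 genes and all lists were chosen with earlier results of these data known. Named genes were the 10 genes, Nsun7, the 5 closest WT profiles among genes at 50 CPM or more in a class, and from each list the highest and lowest ratios in round and elongating spermatids and the 3 most abundant genes. Of the closest profiles, 1 is not reported here. Examples beyond these were named after their values were seen. Alternatives were a stricter filter (500 genes, 10% mitochondrial counts), doublets left out, Leiden resolution 2, trimmed mean scaling, the same cluster mix, subtraction of free RNA (the Leydig marker share times each gene's level in the whole library), the mean of each cell's CPM and added constants of 1 and 10 CPM. After seeing the data, unnamed clusters given their best class and another Leiden seed were added. Python 3.11.15, numpy 2.4.6, scipy 1.17.1, pandas 2.3.3, scanpy 1.11.5, scikit-learn 1.9.0 and igraph 0.11.9 were used.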

Additional observations from a re-analysis of the deposited data

How the results depend on the processing

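No paired analysis was possible because each genotype had 1 library. The median log2 ratio of the 10 genes in late spermatocytes stayed between -0.011 and 0.049 under the 11 alternatives run, with 0 genes 1.5 times apart in each. In round spermatids the median stayed negative in all 11, from -0.350 with the mean of each cell's CPM to -0.076 with another Leiden seed (-0.285 as reported). The count of genes 1.5 times apart there was 0 instead of 2 with Leiden resolution 2, with unnamed clusters given their best class and with another Leiden seed, and 1 with trimmed mean scaling and with an added constant of 10 CPM. In elongating spermatids the median was -0.011 with trimmed mean scaling (all genes 0.244), -0.185 with the same cluster mix and -0.076 with free RNA subtracted, against -0.312 as reported. The count apart there was 1 instead of 0 with the mean of each cell's CPM and with an added constant of 1 CPM. The number of genes highest in round spermatids in the knockout library was 2 instead of 1 with Leiden resolution 2, 6 with unnamed clusters given their best class and 6 with another Leiden seed. In WT it was 7 and 6 instead of 2 under the last pair of settings. Cfap206 in spermatogonia had a ratio of 0.442 with free RNA subtracted, and Cfap70 in early spermatocytes one of 0.630 with another Leiden seed, both negative as reported. The causes were not tested. Depth limits the small classes: Armc2 had 2 knockout counts in early spermatocytes.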
